A study of Mus musculus with 16 samples.

Results

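Id1, Id2 and Id3 encode the inhibitor of DNA binding (ID) proteins, and their rows were taken by gene symbol from a table of read counts of mouse blood neutrophils, as 3 of 23337 gene symbols. They were selected on the measured rise of Id1 with stimulation of the neutrophils, so their changes with stimulation are given as descriptions without a test. The genotype comparisons were not used in that selection and were tested.

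Bulk RNA-Seq was carried out on neutrophils of C57/Bl6 mice aged 8 weeks, purified from blood by magnetic negative selection. The LTβRΔN mice carried floxed Ltbr alleles and Mrp8-Cre, in which the promoter of a myeloid S100 gene drives the recombinase, and the column names of the table also give GFP for this transgene. The control mice were littermates with the same floxed alleles and no Cre. Libraries are labelled unstimulated or stimulated, and the protocol describes 2 h of stimulation with TNF (100 ng/ml), IL-6 (50 ng/ml) and GM-CSF (100 ng/ml), in which soluble LIGHT (500 ng/ml), a ligand of the lymphotoxin beta receptor (LTβR), was present or absent. The labels do not say which libraries received LIGHT. Of the controls, 3 libraries were unstimulated and 4 stimulated, and of LTβRΔN, 4 were unstimulated and 5 stimulated. It is not stated that each library came from a separate mouse, so p-values measure the spread between these libraries, which may be technical in part. In the column names, 7 numbers recur in an unstimulated and a stimulated library of the same genotype. Their meaning is not stated, and the main fits did not pair these libraries.

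ID proteins have a helix-loop-helix domain for pairing with other proteins but no basic region for contacting DNA. They bind the E proteins, which are basic helix-loop-helix transcription factors, and the resulting pair cannot hold DNA. Id1 is a classic target of bone morphogenetic proteins acting through SMAD factors, Id2 is needed for innate lymphoid cells and natural killer cells, and Id3 acts in the development of lymphocytes.

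The 3 genes lie on separate chromosomes of the mouse genome (GRCm38, GENCODE M21). Id1 (ENSMUSG00000042745.9) lies at chr2:152736251-152737410 on the plus strand. Id2 (ENSMUSG00000020644.9) lies at chr12:25093799-25097140 on the minus strand. Id3 (ENSMUSG00000007872.3) lies at chr4:136143497-136145755 on the plus strand. None of them overlaps another annotated gene. The stretch of coding sequence most alike among them encodes most of the helix-loop-helix domain, and is shown because it is what defines the family and where reads would be most likely to be shared. These are the 120 exonic bases of each coding sequence, 5′ to 3′, with capitals for a base that is identical in all 3 genes.
Id1: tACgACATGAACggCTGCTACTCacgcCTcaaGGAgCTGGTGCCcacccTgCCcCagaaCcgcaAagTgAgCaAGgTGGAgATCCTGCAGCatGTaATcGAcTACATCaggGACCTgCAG
Id2: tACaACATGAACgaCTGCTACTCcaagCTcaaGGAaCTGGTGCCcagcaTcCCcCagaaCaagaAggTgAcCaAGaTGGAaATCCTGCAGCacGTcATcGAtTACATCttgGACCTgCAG
Id3: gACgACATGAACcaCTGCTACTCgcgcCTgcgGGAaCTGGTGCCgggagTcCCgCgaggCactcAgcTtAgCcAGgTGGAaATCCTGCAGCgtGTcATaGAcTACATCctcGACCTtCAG
In this window 77 of 120 bases were identical in all 3 genes. Id1 and Id2 were the closest pair at 81.7% identity, against 70.8% for Id1 and Id3 and 71.7% for Id2 and Id3. The longest run of bases shared exactly by any pair of the whole transcripts compared was 15, between Id2 and Id3. A longer read could not match both transcripts of a pair without a mismatch, and the mismatches allowed in alignment are not given.

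Library totals ranged from 4437039 to 11932653 counts in controls and from 1094335 to 11424825 in LTβRΔN. Ltbr, the deleted gene, was at 116 ± 33.0 CPM (counts per 1000000, scaled by TMM factors, SD, n = 3) in unstimulated controls and 8.22 ± 3.14 (n = 4) in unstimulated LTβRΔN neutrophils, and was lower in LTβRΔN in both conditions (edgeR adjusted p = 1.09e-04 and 3.83e-05). Cish, a feedback inhibitor of cytokine signalling, rose by 8.60 and 8.05 on the log2 scale with stimulation in control and LTβRΔN libraries. Summed CPM of 6 measured neutrophil markers lay between 43986 and 74659 in every library, against 341 to 563 for monocyte and dendritic cell markers, at most 1.60 for B cell markers and at most 0.94 for natural killer and innate lymphoid cell markers. Cd79b, Ms4a1, Pax5, Ebf1, Ncr1, Klrb1c and Eomes had 0 counts in all 16 libraries.

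Id1, on whose rise the genes were selected, was far higher in stimulated than in unstimulated neutrophils. Its level was 33.2, 40.6 and 45.2 CPM in the 3 unstimulated control libraries, and 698, 708, 774 and 539.7 CPM in the 4 stimulated ones. In LTβRΔN it was 58.5, 43.2, 48.4 and 77.7 CPM without stimulation, and 561, 669, 765, 694 and 570.2 CPM with it. Every stimulated library stood far above every unstimulated library in both genotypes, with no overlap. A total of 6.58% of the 9213 genes tested had all stimulated control libraries above all unstimulated ones, and 4.61% did in LTβRΔN. The group means went from 39.7 ± 6.03 to 680.0 ± 99.5 CPM in controls and from 57.0 ± 15.2 to 652 ± 86.4 CPM in LTβRΔN.

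As fitted by edgeR, the log2 fold change of Id1 was 4.10 (SE 0.21), or 17.2-fold, in controls and 3.48 (SE 0.18), or 11.2-fold, in LTβRΔN. These changes ranked 119 and 129 from the highest of 9213 genes. For comparison, 2.82% of genes tested were called higher with stimulation in controls and 2.98% in LTβRΔN at an adjusted p under 0.05.

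**Figure D1:**
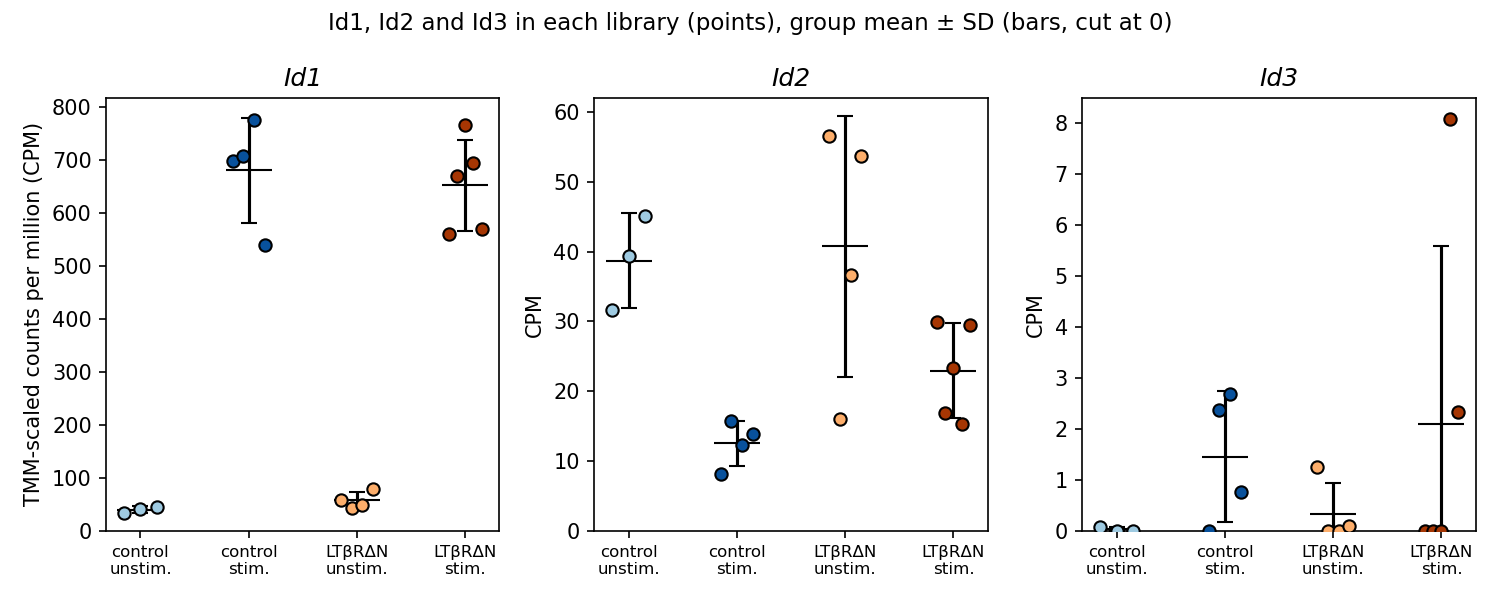
Levels of Id1, Id2 and Id3 in TMM-scaled CPM (y axes, linear from 0) in the 4 groups, with a point for each library, a line for the group mean and bars for the SD. Id1 lay between 33.2 and 77.7 CPM in unstimulated and between 539.7 and 774 CPM in stimulated libraries, Id2 was lower in all stimulated than in all unstimulated control libraries, and Id3 was near 0 in most libraries.

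Id2 moved the other way. Its level was 31.6, 39.4 and 45.1 CPM in unstimulated control libraries and 8.11, 15.7, 12.3 and 13.9 CPM in stimulated ones, so that all 4 stimulated libraries were below all 3 unstimulated libraries. Among all genes tested, 6.09% had this pattern in controls. In LTβRΔN it was 56.6, 16.01, 36.7 and 53.7 CPM without stimulation and 29.9, 16.8, 23.2, 15.3 and 29.4 CPM with it. These groups overlapped, because unstimulated library 68, which had 20 Id2 counts in the smallest library of the series, was at the level of the lowest stimulated libraries. All stimulated libraries were below all unstimulated libraries for 2.67% of genes in LTβRΔN, and Id2 was not among these.

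The fitted log2 fold change of Id2 was -1.64 (SE 0.36), or 3.11-fold lower, in controls and -0.87 (SE 0.33), or 1.83-fold lower, in LTβRΔN. Without library 68 the LTβRΔN value was -1.11, and without library 67 it was -0.68. Id2 ranked 377 from the lowest of 9213 genes in controls and 803 in LTβRΔN. The share of genes called lower with stimulation was 0.662% in controls and 0.749% in LTβRΔN. In bulk samples, fewer cells of a type and less RNA per cell cannot be told apart.

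Id3 was barely detected. It had 1, 0 and 0 counts in unstimulated control libraries and 0, 10, 27 and 6 in stimulated ones. In LTβRΔN it had 8, 0, 0 and 1 counts without stimulation and 0, 0, 0, 18 and 6 with it. The counts were spread unevenly within the groups, which overlapped in both genotypes, and 3 counts correspond to between 0.228 and 2.40 CPM depending on the library. Pooled over libraries and scaled to depth, stimulated controls had 42.1 times the Id3 counts of unstimulated controls (43 against 1 count, 95% exact interval 7.16 to 1701). The ratio in LTβRΔN was 4.0 (24 against 9 counts, interval 1.80 to 9.78). These intervals cover counting error only, not the spread between libraries, and are no test of stimulation. Leaving out library 78, with 18 of those 24 counts, lowered the fitted LTβRΔN log2 fold change from 2.43 (SE 1.76) to 0.66, and leaving out library 67 raised it to 4.99. Id4, the remaining gene of the family, had 0 counts in all 16 libraries, where 3 counts would correspond to 0.0304 CPM over all of them.

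All 3 genes passed the filter on low counts, Id3 through a part of the stimulated libraries, while others had 0 counts. Its fitted differences between genotypes rest on few counts, such as 9 in LTβRΔN against 1 in controls without stimulation. CPM depends on transcript length, so levels of the genes are ordered here after division by length. Per kilobase of annotated exon, Id1 was at 34.2 ± 5.20 CPM per kb (SD, n = 3) and Id2 at 15.9 ± 2.78 in unstimulated controls. In unstimulated LTβRΔN these levels were 49.1 ± 13.1 and 16.7 ± 7.67 CPM per kb (n = 4). Stimulated controls had 586 ± 85.8 for Id1 and 5.12 ± 1.32 for Id2 (n = 4), and stimulated LTβRΔN libraries had 562 ± 74.5 and 9.41 ± 2.80 (n = 5). Id3 was below both, with group means from 0.0142 to 1.16 CPM per kb. The order of levels was therefore Id1, Id2, Id3 in each group, and the neighbouring levels of Id1 and Id2 were separated by more than their SDs in all 4 groups.

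The ratio of Id1 to Id2 counts is taken within a library and does not depend on how libraries are scaled. In unstimulated controls the ratio was 1.05, 1.03 and 1.003, which are numbers of reads and not levels per length. In stimulated controls it was 86.1, 45.2, 63.0 and 38.9. In LTβRΔN the ratio was 1.03, 2.70, 1.32 and 1.45 without stimulation and 18.8, 39.8, 32.9, 45.4 and 19.4 with it. Stimulated libraries were separate from unstimulated ones in both genotypes, and the spread within the stimulated groups was wide.

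Counted together, the 3 genes summed to 78.4 ± 12.8 CPM in unstimulated and 694 ± 99.6 CPM in stimulated controls, and to 98.0 ± 32.3 and 677 ± 82.4 CPM in LTβRΔN. Id1 made up 50.7 ± 0.577% of these counts, which were not divided by length, in unstimulated controls and 98.0 ± 0.675% in stimulated controls. In LTβRΔN its share was 59.8 ± 9.54% and 96.2 ± 1.29%. The widest uncertainty was in unstimulated LTβRΔN library 68, where the share was 73.0% of 74 counts (95% exact binomial interval 61.4 to 82.6%, counting error only).

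**Figure D2:**
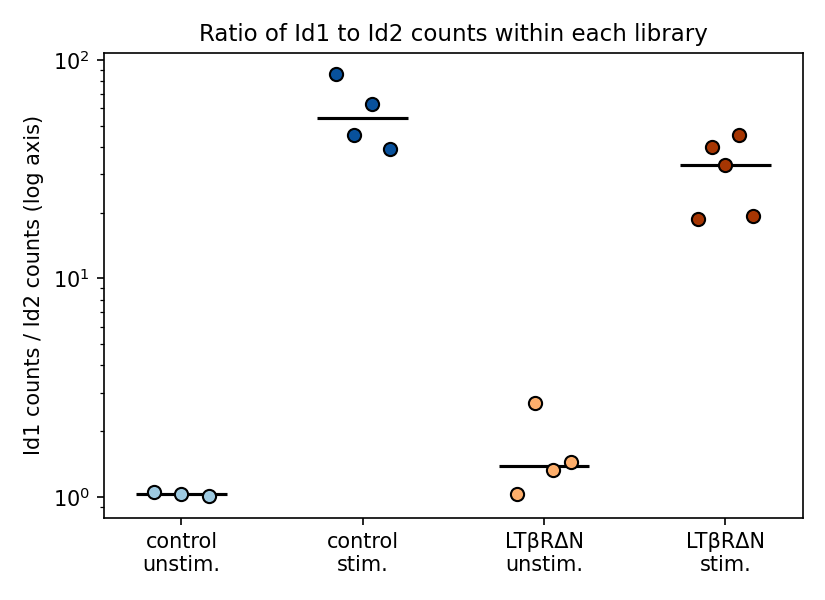
Ratio of Id1 to Id2 counts within each library on a log axis, for the 4 groups, with a point for each library and a line at the group median. Unstimulated libraries lay between 1.003 and 2.70 and stimulated libraries between 18.8 and 86.1, with 3 of 5 stimulated LTβRΔN libraries below all stimulated controls.

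To ask whether LTβR in neutrophils affected the family, genotypes were compared within each condition. No ID gene passed the test across all genes. Without stimulation, Id1 was 0.56 higher in LTβRΔN on the log2 scale (SE 0.18, 95% interval 0.18 to 0.94), with 3 of 4 LTβRΔN libraries above all controls. Without library 70, the highest, it was 0.36 (unadjusted p = 0.0529). The difference over all libraries had an unadjusted p of 0.00586 in the edgeR fit but an adjusted p of 1. An exact two-sided permutation test of log2 CPM, which doubles the smaller one-sided p, gave p = 0.114. With 4 against 3 libraries this doubled p cannot fall below 0.05. After stimulation, Id1 differed by -0.06 (SE 0.15, interval -0.38 to 0.25, edgeR adjusted p = 0.985). Only 0.0217% of genes, 2 of 9213, passed the genotype test without stimulation, and 0.0217%, again 2, passed it with stimulation, Ltbr being called in both.

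Id2 in stimulated cells was 0.87 higher in LTβRΔN than in controls on the log2 scale (SE 0.34, interval 0.17 to 1.57), with 4 of 5 LTβRΔN libraries above all 4 controls. The edgeR p was 0.0168 before and 0.676 after adjustment over all genes. The exact two-sided permutation p, not adjusted for the number of such tests, was 0.0317. The log2 Id1 to Id2 ratio in stimulated cells was 4.87 ± 0.590 in LTβRΔN and 5.80 ± 0.511 in controls (exact permutation p = 0.0794). Without stimulation, the Id2 difference was 0.10 (SE 0.36, interval -0.65 to 0.85, edgeR adjusted p = 1), and its sign turned when library 67, 70 or 71 was left out. The Id3 differences of 2.96 (SE 2.06) without and 0.53 (SE 1.60) with stimulation had adjusted p-values of 1 and 0.988. The former fell to 0.41 without library 67, and the latter turned to -1.25 without library 78. A total of 8 permutation tests of this kind were run, on the 3 genes and the log2 ratio in both conditions.

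The response to stimulation was also compared between genotypes. The Id1 response was 0.62 smaller in LTβRΔN on the log2 scale (difference -0.62, SE 0.24, 95% interval -1.11 to -0.13), with an unadjusted p of 0.0158 and an edgeR adjusted p of 0.9999. The Id2 response differed by 0.77 (SE 0.49, interval -0.25 to 1.78) and was less negative in LTβRΔN, with the same adjusted p. Without the 3 libraries of under 2000000 counts, library 68 among them, it differed by 0.37. The Id1 difference of responses kept its sign in all 25 alternatives, at -0.72 to -0.42, and was smallest without library 70. In a fit with a block by the number in the column names it was -0.48. There it did not pass the threshold even before adjustment, so the interval given for Id1 holds for the main fit only. For this difference of responses, 0% of genes (0 of 9213) passed the adjusted test in edgeR or DESeq2, while 342 had an unadjusted edgeR p under 0.05.

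**Figure D3:**
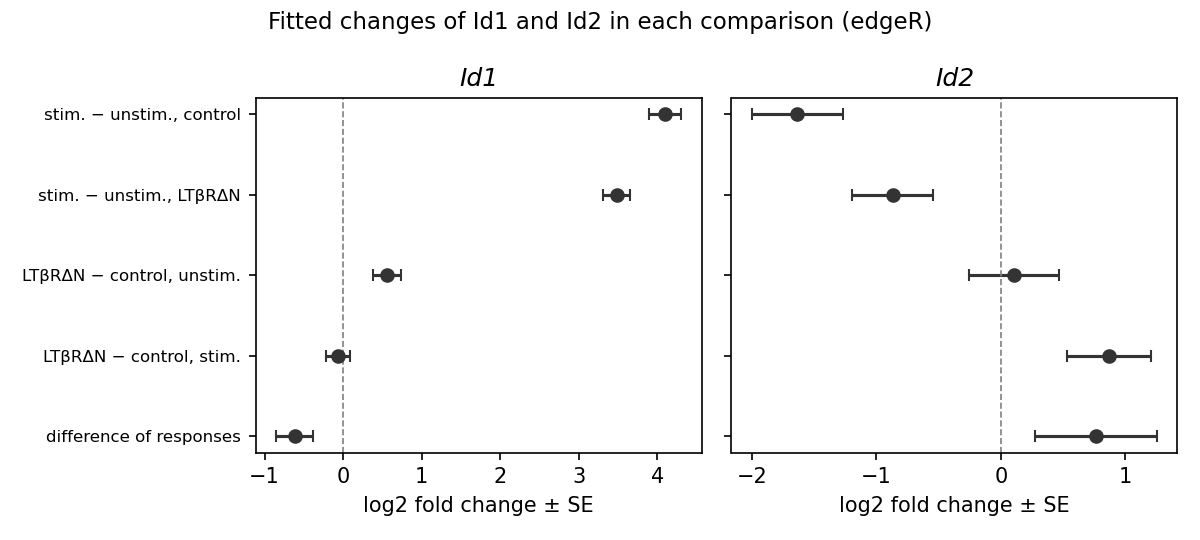
Fitted log2 fold changes of Id1 and Id2 (x axes; points, with bars of 1 SE) in the 5 comparisons listed on the y axis. For Id1 the stimulation changes of 4.10 and 3.48 exceeded the genotype differences of 0.56 and -0.06 by far, and for Id2 the stimulation changes were -1.64 and -0.87.

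All 4 unstimulated LTβRΔN libraries had index code S520 in their titles and all 5 stimulated ones had S521, so in LTβRΔN index and stimulation cannot be told apart. In controls, 2 unstimulated libraries had S520, while unstimulated library 73 shared S521 with the 4 stimulated ones. Library 73 had 45.2 CPM of Id1 and 45.1 CPM of Id2, the highest levels of both genes among the unstimulated controls, and the separation from the stimulated controls was present within S521. With the index as a term, which rests on that 1 library, the log2 fold changes of Id1 were 3.91 in controls and 3.19 in LTβRΔN, and those of Id2 were -1.86 and -1.21.

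Other cell types were followed in the same libraries. Platelet markers summed to 206 CPM in stimulated control library 82 and 55.4 CPM in library 80, against 24.2 CPM or less in each other library. Immature neutrophil markers summed to 753 CPM in library 82 and 313 CPM in library 83. Of these immature markers, Mpo and Elane were at 0 in every group. Library 82, the deepest of the stimulated controls, also had their highest Id1 level and 27 of their 43 Id3 counts. Scaled to depth, its Id3 was 2.68 CPM, against 2.37 CPM in library 81 and 0 in library 80. Library 81 had 11.2 CPM of platelet and 76.6 CPM of immature neutrophil markers. The Id1 change in controls stayed between 3.98 and 4.20 with any 1 library left out. T cell markers, which mark cells known to express Id3, summed to 4.53 to 16.4 CPM, and to 8.53 CPM in library 78, which had the most Id3 for its depth. Their part in the Id3 counts was not tested. Monocyte and dendritic cell markers, which mark cells known to express Id2, had median sums of 489.6 CPM in unstimulated and 427 in stimulated controls, and 435 and 392 in LTβRΔN, with overlapping ranges in both genotypes. Siglech was at 0 in all libraries, and the part of these cells in the Id2 levels was not tested.

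A list of 76 genes around the ID proteins was examined next, covering partners, upstream ligands and SMADs, other transcription factors and targets. All 76 were in the table, 21 had 0 counts in all libraries, and 49 were tested. With stimulation 6 of the 49 rose and 1 fell in controls, where 2.82% of all genes tested were called higher and 0.662% lower. In LTβRΔN 6 rose and 2 fell, against 2.98% and 0.749% of all genes. The median log2 fold change of the 49 genes was 0.03 in controls and -0.14 in LTβRΔN, against -0.02 and -0.03 for all genes. None of the 49 passed the test for genotype in either condition or for the difference of responses, and 0.0217%, 0.0217% and 0% of all genes did. At an unadjusted edgeR p under 0.05 there were 2, 2 and 3 of the 49, against 258, 591 and 342 of all 9213 genes.

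None of the 5 tested E proteins and tissue-restricted partners was called, in a background where 321 of 9213 genes were called with stimulation in controls and 344 in LTβRΔN. Tcf3, which encodes the E proteins E12 and E47, had group medians of 6.42 to 8.23 CPM per kb, between those of Id1 and Id3, and log2 fold changes of 0.03 (SE 0.34) and 0.11 (SE 0.31) in control and LTβRΔN. Tcf4, another E protein, was below 0.1 CPM per kb in each group on average, with changes of -1.01 (SE 1.48) and -1.36 (SE 1.37). The third, Tcf12, had 0 counts in all libraries and shares its locus with 11 other annotated genes, so its level could be affected by the counting. Per kilobase, the mean level of Id1 thus went from 34.2 to 586 in controls while that of Tcf3 was 6.75 ± 0.982 and 6.89 ± 2.79. Among the 4 other helix-loop-helix repressors tested, Bhlhe40 rose from 22.4 ± 8.28 to 131 ± 30.9 CPM in controls and from 31.3 ± 12.9 to 99.8 ± 16.2 CPM in LTβRΔN (adjusted p = 2.56e-06 and 9.52e-05 by edgeR). With the index as a term the LTβRΔN call of Bhlhe40 was lost (adjusted p = 0.304), while its log2 fold change was 1.75 against 1.73. Bhlhe40 overlaps an antisense gene on the other strand, and Inhba, Smad4, Atf3, Cdkn1a and Thbs1 also overlap other annotated genes, whose reads cannot be told apart if strand was not used in counting. None of the 11 other ID partners and turnover genes tested, among them the deubiquitinase gene Usp1 and the retinoblastoma gene Rb1, was called.

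Of the 10 bone morphogenetic protein and TGF-β ligands, 7 had no counts in any library and 2 were tested. Inhba, which encodes the activin A subunit, rose from 1.82 ± 2.15 to 54.1 ± 15.5 CPM in controls and from 1.43 ± 0.982 to 61.7 ± 6.72 CPM in LTβRΔN (edgeR adjusted p = 9.46e-06 and 1.26e-06). None of the 7 receptors tested was called. Smad1 and Smad5, the SMADs that bone morphogenetic protein receptors phosphorylate, had group medians of at most 3.74 and 1.28 CPM and did not pass the test. Smad4, their common partner, was at 13.1 ± 6.48 and 29.6 ± 8.96 CPM in unstimulated and stimulated controls (adjusted p = 0.118) and rose from 11.9 ± 2.05 to 31.9 ± 9.75 CPM in LTβRΔN (edgeR adjusted p = 0.0166). The Smad4 call was lost without library 69, 70 or 78 (adjusted p = 0.0510, 0.0834 and 0.0549) and without the 3 smallest libraries (0.0862), with log2 fold changes of 1.45, 1.30, 1.28 and 1.48 against 1.43. With the index as a term the fold change itself fell to 0.43.

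The inhibitor Smad7, a common feedback target of these pathways, had log2 fold changes of 0.44 (SE 0.47) and 0.35 (SE 0.42) that did not pass the test, and Smad6, the inhibitor linked to bone morphogenetic proteins, had 0 counts in all libraries. The SMAD corepressor gene Skil rose from 58.6 ± 14.0 to 166 ± 36.6 CPM in controls and from 55.4 ± 13.4 to 179 ± 41.4 CPM in LTβRΔN (edgeR adjusted p = 1.93e-04 and 1.03e-05). Ski, its relative, was called only narrowly, with a log2 fold change of 1.67 in controls (adjusted p = 0.0467) and 0.93 in LTβRΔN (adjusted p = 0.314), and the control call was lost in 11 of the 16 fits that left out 1 library.

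Of 7 other transcription factors known at the Id1 gene, Egr1 was called in controls, Egr1 and Atf3 were called in LTβRΔN, and the other 5 were called in neither. Egr1, an immediate-early transcription factor, rose from 432 ± 82.9 to 3649 ± 297 CPM in controls and from 413 ± 52.0 to 2847 ± 1117 CPM in LTβRΔN (edgeR adjusted p = 5.90e-09 and 2.29e-09). Atf3, which is known to repress Id1, had a log2 fold change of -0.71 in both genotypes, with an adjusted p of 0.0694 in controls and 0.0295 in LTβRΔN. The LTβRΔN call for Atf3 was lost in 7 of the 16 fits without 1 library. Of the genes that E proteins activate or ID proteins repress, Cdkn1a, the cell-cycle inhibitor p21, rose from 47.0 ± 14.5 to 286 ± 49.8 CPM in controls and from 76.0 ± 9.27 to 270.2 ± 33.4 CPM in LTβRΔN (edgeR adjusted p = 5.54e-09 and 1.37e-07, the latter 0.109 with the index as a term). Thbs1, which encodes thrombospondin 1 and is a known target of Id1 repression, fell from 166 ± 17.4 to 66.7 ± 16.8 CPM in controls and from 189 ± 19.3 to 68.2 ± 19.6 CPM in LTβRΔN (adjusted p = 2.74e-04 and 1.90e-05). Of the 3 targets tested, 1 rose and 1 fell in each genotype, against 2.82% and 0.662% of all genes in controls and 2.98% and 0.749% in LTβRΔN.

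**Figure D4:**
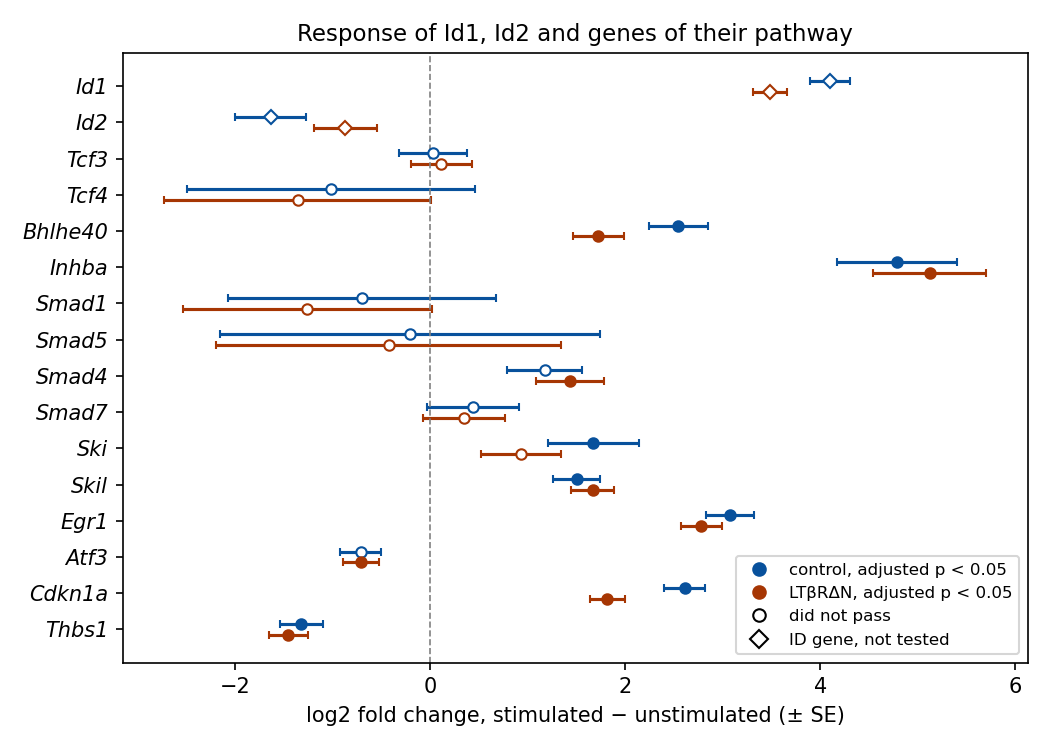
Log2 fold changes with stimulation (x axis, points with bars of 1 SE) of Id1, Id2 and named genes of their pathway in control (blue) and LTβRΔN (brown) libraries, filled where the edgeR adjusted p was under 0.05. Egr1, Inhba, Cdkn1a, Bhlhe40 and Skil rose and Thbs1 fell in both genotypes, while Tcf3 stood at 0.03 and 0.11.

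The genes with patterns most like each ID gene were those with the smallest root mean square difference in centred log2 CPM over the 16 libraries, which share the same stimulation and depth. For Id1, whose own deviation was 1.89, they were Sod2 (0.30), Socs3 (0.31), Maff (0.33), Cd274 (0.33) and Gadd45b (0.35). Sod2 is the mitochondrial superoxide dismutase, Socs3 a feedback inhibitor of IL-6 signalling and Cd274 the ligand PD-L1. For Id2, with a deviation of 0.79, they included Srsf1 (0.40), Snrpe (0.42), Atf3 (0.46) and D4Wsu53e (0.48), of which Srsf1 and Snrpe act in splicing. The differences of these genes from Id2 were a larger part of its deviation than those of the genes nearest to Id1. For Id3 no gene came closer than 0.96, against its own deviation of 1.53, and the nearest genes were Mfsd2b (0.96), Myo9a (0.97), Ttc3 (1.04), Gpr171 (1.07) and Cidea (1.08).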

How the data were processed

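The authors deposited 1 table of whole-number read counts per gene symbol for 16 libraries, without normalization. The submitters' processing notes name mm10, Bowtie 1.0.0, TopHat 1.4.1 and HTSeq 0.7.1 without their settings, and whether counting used strand is not given in the sources used here. Column names were matched to the sample labels by library number (67 to 83). Library totals lay between 1094335 and 11932653 counts, so genes with few counts in the smaller libraries have wide counting error.

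Genes were filtered by filterByExpr (minimum count 10, minimum total 15), which left 9213 of 23337. CPM used TMM factors and the totals of these genes. Counts were fitted with edgeR 4.0.16 (R 4.3.3) by quasi-likelihood over all 16 libraries with 1 coefficient per group, Benjamini-Hochberg adjustment over all genes tested and a threshold of 0.05. For permutation tests and likeness of pattern, log2 CPM had a prior count of 2. The edgeR fit was tried on simulated counts for the genotype comparison in stimulated libraries only, with libraries drawn as independent.

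The ID genes, lists and tests were chosen with earlier results of these data known. Genes were named if they were ID genes, Ltbr, Cish, genes of the lists called in any comparison, Tcf3, Tcf4, Tcf12, Smad1, Smad4 to Smad7, or the 5 genes most alike in pattern to each ID gene. Usp1, Rb1 and the cell type markers were named in addition. Some genes that these rules name are not reported here. Alternatives were other scaling factors, other count filters, the library index as a term, only the groups compared, DESeq2 1.42.0, a block by the number in the column names, and each library left out in turn. Leaving out the 3 libraries under 2000000 counts was added after the data were seen. Sequences and positions came from GENCODE M21. Libraries of 1 group differed by more than counting noise in all 25 pairs, and none was merged.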

Additional observations from a re-analysis of the deposited data

Results flagged for a closer look

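Both results that stood out by the distance of a sample from its group were of Id3. In unstimulated LTβRΔN neutrophils, library 67 had 1.24 CPM of Id3, from 8 counts, while the other libraries had 0, 0 and 1 count. In stimulated LTβRΔN neutrophils, library 78 had 8.08 CPM, from 18 counts, while the others had 0, 0, 0 and 6 counts. A total of 9 sets, each of 1 gene in 1 group of 4 or 5 libraries, were examined by Dixon's criterion. Its rate of about 1 in 20 flagged by chance, or 0.45 of 9, holds for normally distributed values. It does not hold for sets that are mostly 0 or near it, such as these of Id3.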

How the results depend on the processing

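The Id1 and Id2 changes with stimulation kept their direction in all 26 alternatives, at 3.86 to 4.20 and 3.19 to 3.68 for Id1 (control, LTβRΔN) and -1.88 to -1.47 and -1.26 to -0.68 for Id2. No ID gene passed an adjusted genotype test in any alternative. With the library index as a term, the LTβRΔN change of Id1 was 3.19 and of Id3 4.04. Calls among all genes then fell to 157 (133 higher, 24 lower) in controls and 79 (69 and 10) in LTβRΔN. Calls in the ID lists were 4 in LTβRΔN, against 8 in the main fit, and stayed at 7 in controls. For the difference of responses 1 gene was called, against 0 in the main fit. Genotype calls with and without stimulation were 14 and 4 by DESeq2, 1 and 1 with at least 10 counts in every library, and 2 and 4 with every gene of at least 1 count. With library totals in place of TMM the median of all genes was -0.27 in controls and -0.21 in LTβRΔN, and calls split 201 higher to 272 lower and 216 to 293, against 260 to 61 and 275 to 69. Id1 then changed by 3.86 and 3.31 and Id2 by -1.88 and -1.03.

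With 1 library left out, signs reversed for Id1 in stimulated cells (range -0.16 to 0.0070, the latter without library 82), Id2 in unstimulated cells (-0.086, -0.053 and -0.027 without 67, 70 and 71, up to 0.35), the Id3 difference of responses (-4.23 to 0.12, the latter without 67) and Id3 in stimulated cells (-1.25 without 78, to 1.02). The Id3 change in LTβRΔN ranged from 0.66 to 4.99. Calls ranged from 219 to 334 in controls, 266 to 392 in LTβRΔN, 2 to 6 for genotype without stimulation and 0 to 2 for the difference of responses, the highest of both without library 71. With the index term, calls were lost for Bhlhe40 (log2 fold change 1.75 against 1.73), Cdkn1a (1.32 against 1.82), Smad4 (0.43 against 1.43) and Atf3 (-1.34 against -0.71) in LTβRΔN and Ski (2.70 against 1.67) in controls. Atf3 in controls passed in 8 alternatives that kept each library or left out the small ones, DESeq2 among them. Causes were not tested.

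The 7 numbers shared by an unstimulated and a stimulated column gave correlations of deviations of 0.021 to 0.069, and 13 of 14 libraries correlated best with their own number, a hint from the data and not from the design. With this replicate block, the changes were 4.03 and 3.56 for Id1 and -1.66 and -0.85 for Id2, and 324 and 343 genes were called. Depth limits Id3 most, where 3 counts in the smallest library are 2.40 CPM.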
